A study of Homo sapiens with 4 samples.

Results

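The genes described here are the CDK inhibitors and the pocket proteins, which control the passage of a cell from G1 into S phase. They were chosen by gene symbol and comprise 10 of the 26364 genes listed in the RNA-seq data: the CIP/KIP inhibitors CDKN1A, CDKN1B and CDKN1C, the INK4 inhibitors CDKN2A, CDKN2B, CDKN2C and CDKN2D, and the pocket proteins RB1, RBL1 and RBL2. All 10 were listed, and 9 of them were abundant enough to be tested.
RNA-seq was performed in BE(2)C, an established human neuroblastoma cell line with an amplified MYCN gene, in 4 samples. In 2 control samples (Ctrl, labelled wild type) the cells received a non-targeting siRNA, and in 2 MYCN knockdown samples (MYCN KD) they received a siRNA against MYCN. All cells were exposed to 80 nM siRNA (per the labels; the study's methods describe a lower concentration) with Lipofectamine, a lipid transfection reagent, for 6 h, and total RNA was taken on the following day. A single cell line and a single siRNA against MYCN were used. The study's methods call its replicates biological, but the labels do not say whether they were separate cultures, so the p-values measure the spread between these samples, which may be technical.
CIP/KIP inhibitors bind complexes of cyclins with CDK2 and other cyclin-dependent kinases, whereas INK4 inhibitors bind CDK4 and CDK6 and keep them from D-type cyclins. Active cyclin-CDK complexes phosphorylate the pocket proteins, which otherwise hold E2F transcription factors and repress genes of the cell cycle. MYC proteins are known to repress CDKN1A and CDKN2B together with MIZ1 (encoded by ZBTB17), and deletion or silencing of INK4 genes and of RB1 is frequent in human tumors.

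The promoters of the members whose changes the results turn on are shown first, as the 250 bases before the first transcribed base, from RefSeq on GRCh38.p14. Of the 10 members, 9 matched the RefSeq table, with 13 windows in all, and CDKN1C did not. Motifs of 4 kinds were searched on both strands: the E-box CACGTG bound by MYC proteins with MAX, the E2F motifs TTTCCCGC, TTTCGCGC, TTTGCCGC and TTTGGCGC, the GC box GGGCGG bound by SP1, and the cell cycle homology region TTTGAA bound by the MuvB complex. Among all 35116 windows of the same length, 6.34% held the E-box, 2.79% an E2F motif, 42.6% a GC box and 13.3% TTTGAA. Capitals mark the motifs, each sequence runs 5′ to 3′ on the strand of its gene, and positions count from the first base of a motif back to the transcription start. CDKN1A and CDKN2D are given because they rose most, both starts of CDKN2A because it was the member that fell, CDKN2C because it held an E-box, and RBL1 because it held E2F motifs.
CDKN1A, chr6:36678464-36678713, plus strand: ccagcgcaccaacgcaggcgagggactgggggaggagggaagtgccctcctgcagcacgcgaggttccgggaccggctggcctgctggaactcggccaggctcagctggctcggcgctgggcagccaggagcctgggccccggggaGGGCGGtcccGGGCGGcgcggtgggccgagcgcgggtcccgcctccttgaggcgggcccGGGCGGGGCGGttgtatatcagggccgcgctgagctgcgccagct
CDKN2D, chr19:10568980-10569229, minus strand: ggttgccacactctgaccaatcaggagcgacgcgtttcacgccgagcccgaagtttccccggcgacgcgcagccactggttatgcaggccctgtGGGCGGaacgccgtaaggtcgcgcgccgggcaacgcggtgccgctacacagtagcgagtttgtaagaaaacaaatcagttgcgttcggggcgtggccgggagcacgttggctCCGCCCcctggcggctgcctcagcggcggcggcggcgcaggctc
CDKN2A, start of the ARF transcript, chr9:21995325-21995574, minus strand: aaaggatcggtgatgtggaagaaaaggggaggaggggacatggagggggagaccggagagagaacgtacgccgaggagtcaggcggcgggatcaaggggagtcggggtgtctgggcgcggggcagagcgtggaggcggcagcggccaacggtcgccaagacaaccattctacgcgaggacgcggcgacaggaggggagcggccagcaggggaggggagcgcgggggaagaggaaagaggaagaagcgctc
CDKN2A, start of the p16INK4a transcript, chr9:21974858-21975107, minus strand: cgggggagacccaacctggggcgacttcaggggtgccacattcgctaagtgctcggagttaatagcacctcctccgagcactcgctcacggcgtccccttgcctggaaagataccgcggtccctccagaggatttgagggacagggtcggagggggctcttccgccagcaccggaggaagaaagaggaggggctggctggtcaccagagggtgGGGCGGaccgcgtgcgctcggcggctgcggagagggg
CDKN2C, chr1:50969995-50970244, plus strand: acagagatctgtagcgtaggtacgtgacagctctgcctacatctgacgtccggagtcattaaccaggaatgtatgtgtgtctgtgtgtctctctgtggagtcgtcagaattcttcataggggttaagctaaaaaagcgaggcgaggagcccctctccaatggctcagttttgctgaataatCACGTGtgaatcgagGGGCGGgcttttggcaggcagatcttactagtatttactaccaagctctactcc
RBL1, chr20:37095998-37096247, minus strand: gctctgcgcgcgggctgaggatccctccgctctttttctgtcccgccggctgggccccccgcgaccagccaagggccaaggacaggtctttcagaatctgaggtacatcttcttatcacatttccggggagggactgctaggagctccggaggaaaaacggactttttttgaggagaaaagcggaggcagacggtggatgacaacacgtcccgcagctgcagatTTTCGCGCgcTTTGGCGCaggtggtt
The CDKN1A window held 4 GC boxes, at 104, 94, 45 and 40 bases before the start, of which the last pair share a base, and held neither the E-box nor an E2F motif. The CDKN2D window held 2 GC boxes, at 156 and 44 bases. The window before the p16INK4a start of CDKN2A held 1 GC box at 37 bases, and none of the motifs was found before the ARF start. The E-box was found in 2 of the windows of CDKN2C, at 69 bases in the one shown and at 220 bases in another, and in no window of another member. CDKN2C also held 1 GC box in the window shown and 5 in a further window, more than any other window of a member. RBL1, which encodes a pocket protein, held 2 E2F motifs next to each other, at 26 and 16 bases before its start. CDKN2B held 2 GC boxes, CDKN1B held 1, the windows of RBL2 held none of the motifs, and TTTGAA was found in no window of a member. The window listed for RB1 lies before a start 172699 bases inside the gene, so the promoter at the main start of RB1 was not searched here. RefSeq starts inside the gene also apply to the windows of CDKN1A (2251 bases), p16INK4a (20467 bases) and CDKN2C as shown (9500 bases). A match is a description of the letters in the window and not a binding site.

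Levels are given as RPKM, the number of reads scaled to the length of the gene and to the total of reads, which allows genes to be compared with each other. Differences were tested with limma on log2(RPKM + 1) across 11411 genes whose RPKM averaged 1 or more over the 4 samples, and p-values were adjusted by Benjamini-Hochberg (threshold 0.05). Fold changes are on this scale, which understates the change of weakly expressed genes. The deposited values corresponded to totals of 29055819 to 34142988 normalized reads per sample. MYCN itself was at 1068 and 1073 RPKM in Ctrl, against 720 and 718 in MYCN KD, and fell by 0.57 on the log2 scale (SE 0.029, adjusted p = 0.00361; 0.38 with quantile normalization), so that much MYCN mRNA was left. All 12 sympathoadrenal markers were expressed (summed RPKM 3410 to 3657 in Ctrl and 4906 to 5250 in MYCN KD), and the 5 leukocyte markers summed to 1.54 to 1.77 in Ctrl and 1.57 to 1.77 in MYCN KD. Fibroblast markers were at low levels, with 12.1 to 14.5 RPKM in sum in Ctrl and 16.2 to 19.1 in MYCN KD over 4 genes, endothelial markers summed to at most 0.638, and epithelial markers to 0.647 to 0.760 in Ctrl and 1.49 to 1.73 in MYCN KD. ITGAM (leukocyte) and KRT5 (epithelial) were at 0 in all samples. The part of these markers in the changes below was not tested.

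Of the 9 members tested, 4 rose (CDKN1A, CDKN2B, CDKN2C and CDKN2D), 1 fell (CDKN2A), and CDKN1B, RB1, RBL1 and RBL2 did not pass the threshold. Across all tested genes 48.1% passed it, 25.3% as higher and 22.8% as lower in MYCN KD, so that 5 calls among 9 genes lie near the background. Their median log2 fold change was 0.25, against 0.03 for all tested genes. In 5 of these 9 members both MYCN KD samples lay above both Ctrl samples, in 1 both lay below, and in 3 (CDKN1B, RBL1 and RBL2) the groups overlapped, while 76.2% of all tested genes did not overlap between the groups, 40.4% as higher and 35.8% as lower. With 2 samples a group, an exact permutation test cannot give a two-sided p below 0.333, so the calls rest on the model across all genes. In bulk RNA, fewer cells with a transcript and less of it per cell cannot be told apart.

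**Figure D1:**
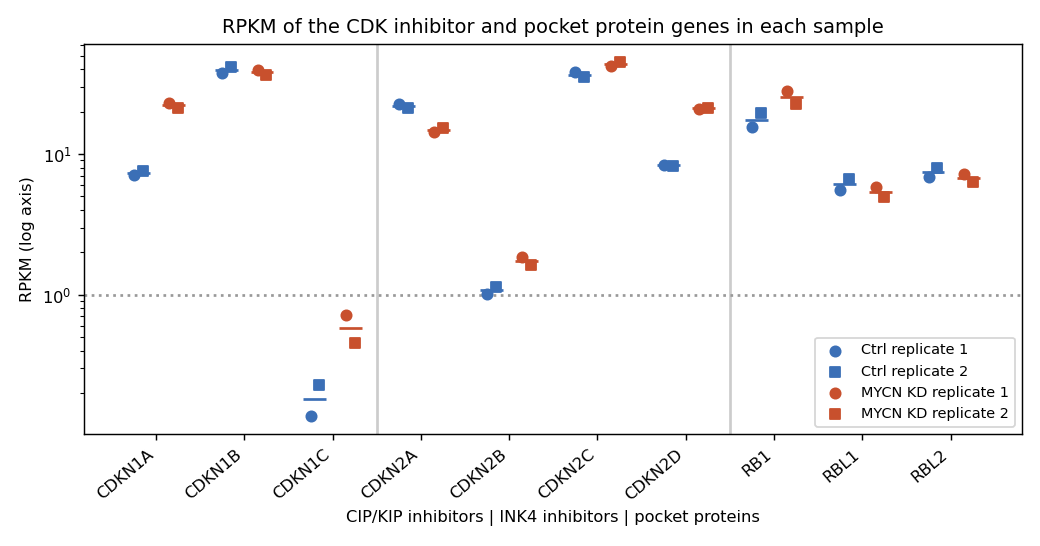
RPKM of the 10 members (logarithmic axis) in each of the 4 samples, with Ctrl in blue and MYCN KD in red, replicate 1 as circles and replicate 2 as squares, and bars at the group means; the dotted line marks the filter at 1 RPKM. CDKN1A and CDKN2D show the widest gaps between the groups, CDKN2A is lower in both MYCN KD samples, and CDKN1C lies below the filter in all 4 samples.

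CDKN1A encodes p21, an inhibitor of cyclin-CDK2 that arrests the cell cycle (chr6:36644237-36655114, plus strand, GRCh37; 3 exons in the canonical transcript). Its level was 7.08 and 7.63 RPKM in Ctrl, against 23.1 and 21.4 RPKM in MYCN KD. Both knockdown samples were far above both controls, and the replicates of a group lay close together. The mean rose 3.03-fold, from 7.35 ± 0.389 to 22.3 ± 1.19 RPKM (SD, n = 2), with a log2 fold change of 1.48 (SE 0.064, adjusted p = 0.00359 by limma). Of all tested genes, 33 had a larger rise. The neighboring gene SRSF3, a splicing factor, moved the other way, from 100.2 and 110.2 RPKM in Ctrl to 82.6 and 75.5 RPKM in MYCN KD, with a log2 fold change of −0.41 (adjusted p = 0.025, lost when the samples were scaled to equal total RPKM or quantile normalized, the 2 other scalings tried). PANDAR, a noncoding RNA transcribed away from the CDKN1A promoter, stayed under the filter at 0.506 and 0.644 RPKM in Ctrl, against 0.571 and 0.429 RPKM in MYCN KD, and its groups overlapped.

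CDKN1B encodes p27, the inhibitor that holds cyclin E-CDK2 in quiescent cells and is degraded through SKP2 (chr12:12838432-12875303, plus strand, 3 exons). It was the most abundant CIP/KIP gene, at 37.8 and 41.3 RPKM in Ctrl, against 39.7 and 36.5 RPKM in MYCN KD. The groups overlapped. The means were 39.6 ± 2.45 and 38.1 ± 2.26 RPKM, and the log2 fold change of −0.06 (SE 0.072, adjusted p = 0.562) was smaller than its standard error and turned just above 0 under both other scalings. GPR19 overlaps the CDKN1B locus on the opposite strand over 10710 bases and fell slightly, from 7.998 and 7.948 RPKM to 6.79 and 6.84 RPKM (log2 fold change −0.20, adjusted p = 0.026, lost with equal totals). APOLD1, a further neighbor, rose from 0.813 and 0.933 RPKM to 1.46 and 1.27 RPKM (log2 fold change 0.33, adjusted p = 0.026).

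CDKN1C encodes p57, an imprinted inhibitor expressed mainly during development (chr11:2904443-2907005, minus strand, 4 exons). It was at 0.137 and 0.227 RPKM in Ctrl, against 0.713 and 0.452 RPKM in MYCN KD, below the filter, and was therefore not among the tested members. These values correspond to 9 and 14 normalized reads in Ctrl, against 40 and 27 in MYCN KD, with exact 95% Poisson intervals of 4.12 to 17.1, 7.65 to 23.5, 28.6 to 54.5 and 17.8 to 39.3 reads, which cover counting error only. Both knockdown samples were above both controls, but the intervals of the higher Ctrl and the lower MYCN KD sample overlapped. The ratio of the means was 3.21. Without the filter, the log2 fold change was 0.42 (SE 0.10, adjusted p = 0.068 over 19908 genes). In the same imprinted region, SLC22A18 was at 0.288 and 0.289 RPKM in Ctrl, against 0.995 and 1.01 RPKM in MYCN KD, PHLDA2 at 0.446 and 1.26 against 0.524 and 0.176 RPKM, and the antisense RNA KCNQ1OT1 stayed under 0.1 RPKM in all samples. IGF2, a growth factor gene of the neighboring imprinted domain, rose from 22.2 and 22.4 RPKM to 32.5 and 32.2 RPKM (log2 fold change 0.52, adjusted p = 0.0044).

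CDKN2A was the member that fell. It encodes p16INK4a, an inhibitor of CDK4 and CDK6, and from another first exon ARF, an unrelated tumor suppressor protein (chr9:21967751-21995300, minus strand, 3 exons). One value per gene was deposited, so that the transcripts of p16INK4a and ARF, whose starts are shown above, cannot be separated. The level was 22.7 and 21.3 RPKM in Ctrl, against 14.4 and 15.4 RPKM in MYCN KD, and no Ctrl sample reached down to a MYCN KD sample. The mean fell from 22.0 ± 0.990 to 14.9 ± 0.676 RPKM, a ratio of 0.679, with a log2 fold change of −0.53 (SE 0.058, adjusted p = 0.00869 by limma).

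CDKN2B lies beside it and encodes p15, the INK4 inhibitor induced by TGF-β (chr9:22002902-22009304, minus strand, 2 exons). It was weakly expressed, at 1.01 and 1.14 RPKM in Ctrl, against 1.84 and 1.63 RPKM in MYCN KD. Both knockdown samples were higher than both controls. The mean rose 1.62-fold, from 1.07 ± 0.0926 to 1.74 ± 0.148 RPKM, with a log2 fold change of 0.40 (SE 0.064, adjusted p = 0.018). These values correspond to 137 and 145 normalized reads in Ctrl, against 213 and 201 in MYCN KD. The exact 95% Poisson intervals of the samples, which cover counting error only, were 115 to 162 and 122 to 171 reads in Ctrl. In MYCN KD they were 185 to 244 and 174 to 231 reads, and no Ctrl interval overlapped a MYCN KD interval. Thus the adjacent CDKN2A and CDKN2B genes moved in opposite directions.
The long noncoding RNA CDKN2B-AS1 (ANRIL) runs through the same locus on the opposite strand and covers all 6403 bases of CDKN2B. It stayed at 0.209 and 0.290 RPKM in Ctrl, against 0.278 and 0.200 RPKM in MYCN KD, and its groups overlapped. MTAP, on the other side of CDKN2A and a gene often deleted together with it in tumors, fell from 8.77 and 9.14 RPKM to 4.31 and 4.15 RPKM (log2 fold change −0.93, SE 0.046, adjusted p = 0.00361). DMRTA1, beyond CDKN2B, was at or below 0.014 RPKM in every sample. Whether the counting used strand is not given in the sources used here, so reads of CDKN2B and CDKN2B-AS1 may be mixed.

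CDKN2C encodes p18, and it was the most abundant INK4 gene (chr1:51426417-51440306, plus strand, 2 exons). Its level was 38.1 and 35.3 RPKM in Ctrl, against 42.1 and 45.3 RPKM in MYCN KD. The groups did not overlap, but the gap between them was only slightly larger than that between replicates. The mean rose 1.19-fold, from 36.7 ± 1.96 to 43.7 ± 2.27 RPKM, with a log2 fold change of 0.25 (SE 0.065), and the adjusted p was 0.04995, just under the threshold. This call was lost with a pseudocount of 0.1 (adjusted p = 0.0502), without the filter (0.0722) and without Ctrl replicate 2 (0.195) or MYCN KD replicate 2 (0.22). The neighbors RNF11 and FAF1 fell, RNF11 from 15.3 and 17.2 RPKM to 10.2 and 9.13 RPKM (log2 fold change −0.69, adjusted p = 0.012) and FAF1 from 24.9 and 25.7 RPKM to 23.0 and 22.4 RPKM (log2 fold change −0.15, adjusted p = 0.049, a call lost under both other scalings).

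CDKN2D encodes p19, the INK4 protein whose level normally peaks during S phase (chr19:10677136-10679735, minus strand, 2 exons). It was at 8.34 and 8.29 RPKM in Ctrl, against 21.0 and 21.1 RPKM in MYCN KD. The replicates nearly coincided and the groups stood wide apart. The exact 95% Poisson intervals, which cover counting error only, were 7.54 to 9.19 and 7.47 to 9.17 RPKM in Ctrl. In MYCN KD they were 19.7 to 22.5 and 19.8 to 22.5 RPKM, and no Ctrl interval overlapped a MYCN KD interval. The intervals were far wider than the SDs below, so these SDs understate the counting error of each sample. The mean rose 2.54-fold, from 8.31 ± 0.0358 to 21.1 ± 0.0727 RPKM, with a log2 fold change of 1.25 (SE 0.036, adjusted p = 0.00359 by limma), and 76 tested genes rose more.

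**Figure D2:**
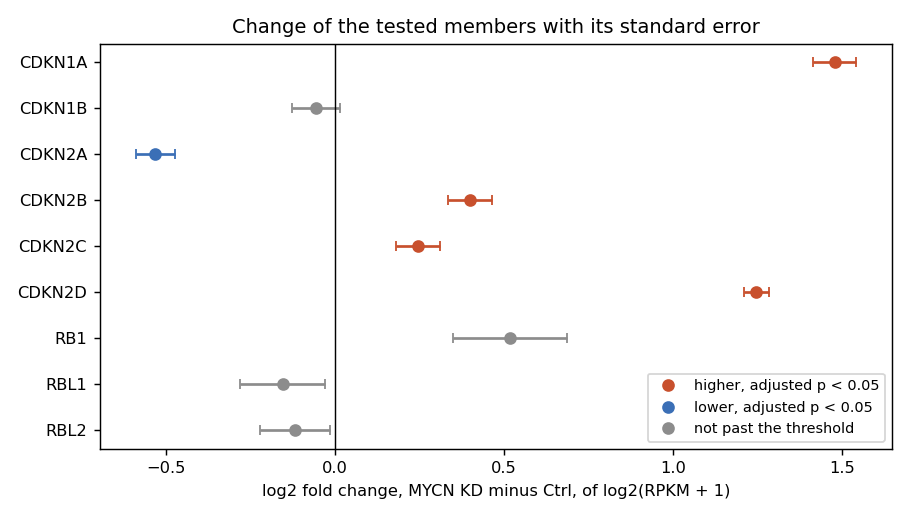
Log2 fold change (MYCN KD minus Ctrl) of log2(RPKM + 1) for the 9 tested members, with bars of 1 standard error; red marks members that rose, blue the member that fell, and grey those that did not pass the threshold. The changes run from −0.53 for CDKN2A to 1.48 for CDKN1A, and RB1 carries the widest standard error at 0.17.

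RB1, the retinoblastoma tumor suppressor, is the pocket protein that restrains the activating E2F factors (chr13:48877880-49173572, plus strand, 27 exons). It was at 15.5 and 19.4 RPKM in Ctrl, against 28.2 and 22.7 RPKM in MYCN KD. Both knockdown samples were above both controls, while the replicates of each group also lay apart. The means were 17.5 ± 2.79 and 25.5 ± 3.93 RPKM, a ratio of 1.46, and the log2 fold change of 0.52 (SE 0.17) did not pass the threshold (adjusted p = 0.0787). With any 1 of the samples left out it lay between 0.36 and 0.67 and passed, with adjusted p from 2.51e-06 (without Ctrl replicate 2) to 0.0225 (without MYCN KD replicate 1), in fits that take the spread from genes of like level. LPAR6, RCBTB2 and LINC00462 lie within the RB1 locus on the opposite strand, and of these only RCBTB2 exceeded 0.1 RPKM, with 0.631 and 0.779 RPKM in Ctrl, against 1.20 and 0.984 RPKM in MYCN KD. MED4, which lies next to RB1, was at 12.04 and 14.25 RPKM in Ctrl, against 12.4 and 10.6 RPKM in MYCN KD and did not pass the threshold (adjusted p = 0.304).

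RBL1 and RBL2 encode p107 and p130, which bind the repressive E2F4 and E2F5 and, with the MuvB proteins, form the DREAM complex. RBL1 (chr20:35624752-35724400, minus strand, 22 exons) was at 5.57 and 6.69 RPKM in Ctrl, against 5.88 and 4.93 RPKM in MYCN KD, with a log2 fold change of −0.15 (SE 0.12, adjusted p = 0.362). RBL2 (chr16:53467889-53525560, plus strand, 22 exons) was at 6.89 and 7.98 RPKM in Ctrl, against 7.26 and 6.30 RPKM in MYCN KD, with a log2 fold change of −0.12 (SE 0.10, adjusted p = 0.405). In both genes the groups overlapped. Their means were 6.13 ± 0.791 against 5.40 ± 0.674 RPKM for RBL1 and 7.44 ± 0.769 against 6.78 ± 0.678 RPKM for RBL2.

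**Figure D3:**
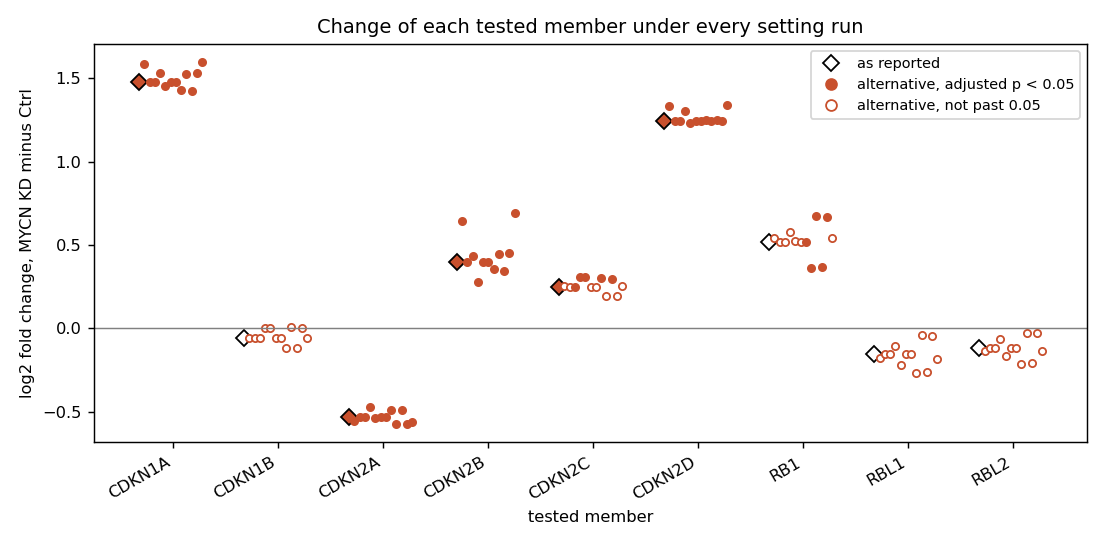
Log2 fold change (MYCN KD minus Ctrl) of each tested member as reported (diamonds) and under each alternative run (circles), filled where the adjusted p was under 0.05. CDKN1A, CDKN2A, CDKN2B and CDKN2D are filled throughout, CDKN2C and RB1 are filled under some settings, and CDKN1B, RBL1 and RBL2 under none of those drawn.

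The order of the levels differed between the conditions. In Ctrl, CDKN1B and CDKN2C were highest and overlapped with each other, followed by CDKN2A, RB1 and CDKN2D, then by RBL2 and CDKN1A, which also overlapped, and by RBL1, CDKN2B and CDKN1C. In MYCN KD, CDKN2C was first and CDKN1B second, RB1 and CDKN1A came next and overlapped, and CDKN2D stood above CDKN2A, with RBL2, RBL1, CDKN2B and CDKN1C last. All other neighbors in each order were separate in their samples.
Summed over each family, CIP/KIP transcripts were at 45.1 and 49.2 RPKM in Ctrl, against 63.5 and 58.3 RPKM in MYCN KD (ratio of means 1.29). The INK4 sum was 70.1 and 66.0 RPKM in Ctrl, against 79.4 and 83.5 RPKM in MYCN KD (ratio 1.20). It includes any ARF transcripts of CDKN2A, which do not encode an INK4 inhibitor and cannot be separated. Neither sum overlapped between the groups, and both reached the smallest p that an exact two-sided permutation test allows here (0.333). The sum of the pocket proteins, at 28.0 and 34.1 RPKM in Ctrl, against 41.4 and 33.9 RPKM in MYCN KD, overlapped (ratio 1.21, exact permutation p = 0.667).
The composition of the families was also compared. CDKN1A made up 15.6 ± 0.136% of the CIP/KIP sum in Ctrl and 36.6 ± 0.233% in MYCN KD (SD, n = 2), with the share of CDKN1B at 84.0% and 62.5%. In the INK4 family, the share of CDKN2A was 32.3 ± 0.0827% and 18.3 ± 0.185%, that of CDKN2D 12.2 ± 0.467% and 25.9 ± 0.823%, and that of CDKN2C 53.9 ± 0.587% and 53.7 ± 0.895%. RB1 took 56.2 ± 1.10% of the pocket protein sum in Ctrl and 67.6 ± 0.958% in MYCN KD. Replicates lay within a few percentage points of each other for every member, also for RB1, whose RPKM varied more.

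**Figure D4:**
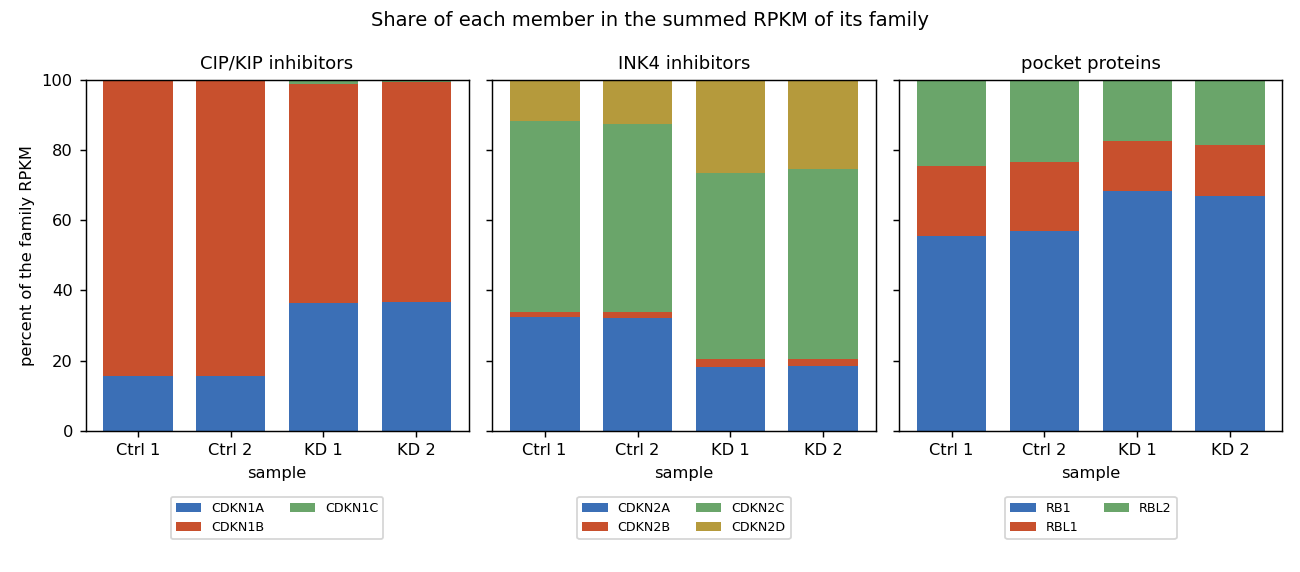
Share of each member (percent) in the summed RPKM of its family, as stacked bars for each of the 4 samples. CDKN1A, CDKN2D and RB1 take larger shares in both MYCN KD samples, CDKN2A a smaller one, and CDKN2C keeps 53.9% and 53.7% of the INK4 sum on average.

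The kinases and cyclins that the inhibitors bind were next compared. CDK4, the kinase held by INK4 proteins, was at 295 and 284 RPKM in Ctrl, against 202 and 211 RPKM in MYCN KD, and fell by 0.48 on the log2 scale (SE 0.042, adjusted p = 0.00626). CDK6, the other INK4 target, was at 18.0 and 23.0 RPKM against 19.9 and 15.8 RPKM, and CDK2, the main CIP/KIP target, at 33.3 and 35.5 against 32.1 and 30.2 RPKM. Neither passed the threshold (adjusted p = 0.429 and 0.121).
Per sample, the INK4 sum, again with any ARF transcripts of CDKN2A, was 0.224 and 0.215 of the summed CDK4 and CDK6 RPKM in Ctrl. In MYCN KD it was 0.357 and 0.368. The CIP/KIP sum over CDK2 was 1.35 and 1.38 in Ctrl, against 1.98 and 1.93 in MYCN KD. These are ratios of transcripts and not of proteins, and in both the 2 groups were wider apart than the replicates.
Of 13 tested G1 cyclins and kinases, none rose and 5 fell (median log2 fold change −0.28), while 1 rose, CCND1, when the totals were equalized (adjusted p = 0.0425) or the samples quantile normalized (adjusted p = 0.0287). The genes that fell were CDK4, CCNE1, CCNA2, CCNH and CDC25A, the phosphatase that activates CDK2. CDC25A showed the largest fall of the list, from 35.4 and 36.0 RPKM to 19.30 and 19.03 RPKM (log2 fold change −0.86, adjusted p = 0.00359). CCNE1, a cyclin partner of CDK2, fell from 14.2 and 15.4 RPKM to 10.0 and 9.25 RPKM (log2 fold change −0.57, adjusted p = 0.0107), whereas CCNE2 was at 3.89 and 4.52 against 4.33 and 3.75 RPKM (adjusted p = 0.721). Among the D-type cyclins, CCND1 was at 299 and 310 RPKM in Ctrl, against 345 and 333 RPKM in MYCN KD and CCND3 at 30.2 and 27.6 against 31.2 and 34.0 RPKM. Both were higher in each MYCN KD sample without passing the threshold (adjusted p = 0.0506 and 0.145), and CCND2 was at or below 0.016 RPKM throughout.

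The genes of the E2F and DP factors, of which the pocket proteins hold only some, were mostly lower. Of 10 tested E2F and DP genes, 7 fell (6 with equal totals, without E2F3) and none rose (median −0.49), against 22.8% of all tested genes called lower. E2F5, a partner of p130, fell most, from 8.36 and 10.0 RPKM to 3.34 and 2.82 RPKM (log2 fold change −1.32, SE 0.12, adjusted p = 0.00646). The activators E2F1 (log2 fold change −0.26, adjusted p = 0.0277), E2F2 (−0.63, adjusted p = 0.00621) and E2F3 (−0.51, adjusted p = 0.0483) also fell. E2F4, the most abundant repressive member, went from 65.9 and 64.3 RPKM to 42.2 and 43.2 RPKM (−0.60, adjusted p = 0.00422).
Of the 7 genes listed for MuvB and DREAM, 3 rose and 2 fell (median −0.02, but 0.04 with equal totals and 0.11 with quantile normalization). Not all of them encode subunits of these complexes. LIN37 rose from 10.57 and 10.55 RPKM to 15.80 and 15.82 RPKM (log2 fold change 0.54), as did LIN54 and DYRK1A, the kinase that promotes DREAM assembly, while RBBP4, a histone chaperone in MuvB and in several chromatin complexes, fell from 15.5 and 16.5 RPKM to 11.9 and 11.2 RPKM (log2 fold change −0.44). The B-MYB gene MYBL2 overlapped between the groups.
Of 12 tested partners of the pocket proteins, 2 rose and 3 fell (median −0.14). PPP1CA, a catalytic subunit of the phosphatase that dephosphorylates RB1, rose from 295 and 269 RPKM to 332 and 363 RPKM (log2 fold change 0.30, adjusted p = 0.046), while its paralog PPP1CC fell (−0.40, adjusted p = 0.039), a call that both other scalings lost. RBBP8, which takes part in DNA end resection and binds RB1, fell most, by 0.63 on the log2 scale (adjusted p = 0.00654).

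Target genes of the pathway were also compared. Of 20 tested E2F target genes of S phase, 14 fell and none rose (median −0.44), and of 15 DREAM target genes of G2 and M phase, 10 fell and none rose (median −0.32). With equal totals the S phase count was 11 and the G2 and M phase count 9, and with quantile normalization they were 16 and 8. All of these genes had a log2 fold change below 0, except that RRM2, FOXM1 and CDC25C were above 0 with equal totals and RRM2 and FOXM1 with quantile normalization. PCNA, the sliding clamp of DNA polymerases, had the largest fall of the S phase list, from 142 and 205 RPKM to 89.1 and 62.6 RPKM (log2 fold change −1.18, SE 0.28, adjusted p = 0.04, lost with equal totals), with a wide spread between replicates. AURKA, a mitotic kinase, had the largest fall of the G2 and M phase list, from 58.5 and 59.2 RPKM to 36.1 and 35.8 RPKM (log2 fold change −0.70, SE 0.033, adjusted p = 0.00359).

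**Figure D5:**
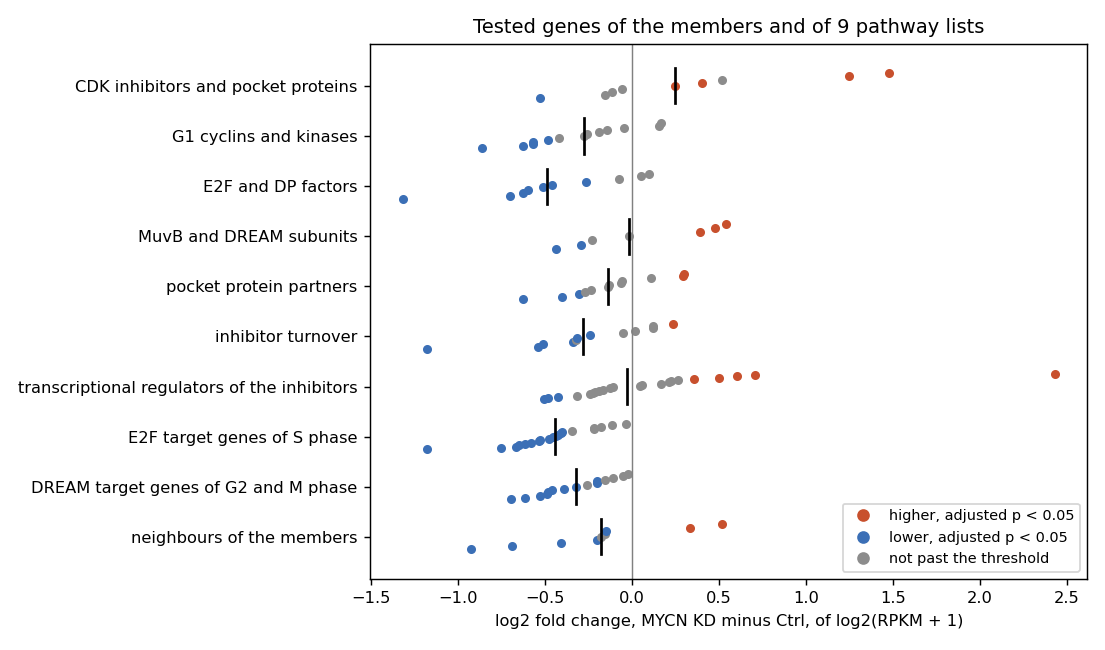
Log2 fold change (MYCN KD minus Ctrl) of every tested gene in the members and in 9 lists of their pathway, with black bars at the medians, red for genes that rose, blue for genes that fell and grey for the others. Medians run from −0.49 for the E2F and DP factors to 0.25 for the CDK inhibitors and pocket proteins, and no gene of the G1 cyclin and kinase, E2F, S phase or G2 and M phase lists rose, except CCND1 with equal totals or quantile normalization.

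The regulators of the inhibitor genes moved both ways, with 5 of 22 tested genes higher and 3 lower (median −0.03). MYC, the paralog of MYCN, was at 0.780 and 0.542 RPKM in Ctrl, against 6.73 and 9.32 RPKM in MYCN KD, and with a log2 fold change of 2.43 (SE 0.18, adjusted p = 0.00497) no tested gene rose more. It stayed far below the MYCN level in the same samples. ZBTB17, which encodes MIZ1, rose from 8.41 and 8.18 RPKM to 10.73 and 11.04 RPKM (log2 fold change 0.35, adjusted p = 0.0099), while MAX, the partner of MYC proteins, fell by 0.48 on the log2 scale (adjusted p = 0.0064).
TBX2 and TBX3, T-box repressors known to act on CDKN1A and on the CDKN2A locus, both rose, TBX2 from 75.6 and 63.5 RPKM to 97.2 and 115 RPKM (log2 fold change 0.60, adjusted p = 0.0354) and TBX3 from 60.3 and 57.1 RPKM to 94.0 and 99.0 RPKM (log2 fold change 0.71, adjusted p = 0.00476). FOXO3, an activator of CDKN1A and CDKN1B, rose from 3.03 and 3.67 RPKM to 5.62 and 4.67 RPKM (log2 fold change 0.50, adjusted p = 0.0437). EZH2, the Polycomb methyltransferase that represses CDKN2A, fell from 29.6 and 32.6 RPKM to 22.6 and 20.6 RPKM (log2 fold change −0.51, adjusted p = 0.0162). The other Polycomb genes on the list that were tested (RNF2, CBX2, CBX8, SUZ12 and EED) did not pass the threshold. SMAD3, the remaining regulator that fell, went from 4.23 and 4.12 RPKM to 2.81 and 2.89 RPKM (log2 fold change −0.43, adjusted p = 0.00705).

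Among genes for the turnover of the inhibitors, 6 of 12 tested genes fell and 1 rose (median −0.28), while 4 fell and 2 rose with equal totals, which lost DTL and PCNA. SKP2, the F-box protein that marks p27 for degradation, was at 45.4 and 55.1 RPKM in Ctrl, against 59.7 and 49.6 RPKM in MYCN KD, and its groups overlapped. Its cofactor CKS1B fell from 109 and 102 RPKM to 71.0 and 76.4 RPKM (log2 fold change −0.51, SE 0.064, adjusted p = 0.0109), and SKP1, a core subunit of the same ligase, fell by 0.32 on the log2 scale. PCNA and DTL, which guide p21 to the CUL4 ligase on DNA, both fell, DTL by 0.54 on the log2 scale (adjusted p = 0.046), as did DDB1 and CUL4A. RBX1, a RING subunit shared by cullin ligases, rose from 98.9 and 100.2 RPKM to 118 and 117 RPKM (log2 fold change 0.24, adjusted p = 0.0123).
Over the 118 tested genes of these 9 pathway lists, 13 rose and 54 fell, while 25.3% of all tested genes were called higher and 22.8% lower. For the regulators and for the partners of the pocket proteins, both counts lay near or below these shares.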

How the data were processed

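Total RNA of BE(2)C cells was sequenced in 2 Ctrl and 2 MYCN KD samples, grouped by the sample labels. The authors aligned reads to hg19 (HISAT2 2.1.0), assigned them to RefSeq genes (featureCounts), fitted DESeq2 and corrected the reads with RUVSeq. What they deposited, in 1 file per sample, is the RPKM of the corrected reads. The spread between replicates is therefore the spread left after that adjustment. The number of factors removed is not given in the sources used here.

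For all 19908 genes above 0 (100%), a gene length was found at which the RPKM values were whole multiples of 1 read (within 0.005). The smallest such length was used for each gene, so the search itself favors whole numbers. A factor common to all samples of a gene is divided out, and the normalized reads are the fewest that fit its values. The other 6456 of 26364 genes were at 0 in all samples. Symbols listed more than once (2 symbols in 4 rows) include no member. log2(RPKM + 1) was fitted for each of 11411 genes that averaged 1 RPKM or more, using limma 3.58.1 in R 4.3.3 (lmFit, then eBayes with its trend option, no block), and p-values were adjusted over all of them by the Benjamini-Hochberg method. Family sums were compared with an exact two-sided permutation test. Sums, shares and figures were made in Python 3.11.15 (with pandas 2.3.3, numpy 2.4.6, matplotlib 3.10.9 and scipy 1.17.1). The fit was also run on simulated counts with independent noise. The spread of the real samples was largely shared, so that run gives no error rate for these data. Gene models came from GENCODE lifted to GRCh37 and promoter sequences from RefSeq on GRCh38.p14.

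The members and all gene lists were chosen with earlier results of these data known, and support nothing on their own. Genes were named by a fixed rule: the 10 members, MYCN, the direct partners of the members, the largest called rise and fall of each list, the neighbors of the members and the most alike pathway gene of each. Others named (among them CCNA2, CCNH, LIN54, MYBL2, RRM2, FOXM1, CDC25C, PPP1CC, MAX, ZBTB17, TBX2, TBX3, SMAD3, the Polycomb genes, SKP1, DTL, DDB1 and CUL4A) were chosen after their values were seen. A gene and a list of genes drawn up around it are not reported here. Alternatives were a pseudocount of 0.1, no filter, a filter at a mean of 5 RPKM, equal total RPKM, quantile normalization, leaving out each sample, a replicate block, eBayes without a trend, and limma voom on the recovered reads.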

Additional observations from a re-analysis of the deposited data

How the results depend on the processing

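CDKN1A, CDKN2A and CDKN2D kept their direction and their call under all 12 alternatives, with log2 fold changes of 1.43 to 1.60, −0.57 to −0.47 and 1.23 to 1.34. CDKN2B did so under the 11 that tested it (0.28 to 0.69), as it lies below a filter at a mean of 5 RPKM. CDKN2C kept its direction but lost its call with a pseudocount of 0.1 (0.25), without the filter (0.25), with eBayes without a trend (0.25, adjusted p = 0.0527), with limma voom (0.25, adjusted p = 0.0519), and with Ctrl replicate 2 or MYCN KD replicate 2 left out. The log2 fold change of CDKN1B turned to 0.00439 with equal totals and to 0.00242 with quantile normalization, far from the threshold in each case. The log2 fold change of MYCN was −0.57 as reported, −0.51 with equal totals and −0.38 with quantile normalization. Equal totals moved the median of all tested genes from 0.026 to 0.0782 and the log2 ratio of the INK4 sum to 0.32. Higher and lower calls among all genes numbered 2890 and 2599 as reported, 1868 and 2106 with a filter at 5 RPKM (fewer genes were tested) and 3279 and 2122 with equal totals. The cause of the other changes was not tested.

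With each sample left out in turn, log2 fold changes ranged from −0.117 to 0.00656 for CDKN1B, from 0.19 to 0.30 for CDKN2C and from 0.36 to 0.67 for RB1, which passed each time, and 4 to 5 members were higher and 1 lower. These fits leave 1 sample in a group, which is assumed to vary like the others, and they take the spread from the trend over all genes. The log2 ratio of the family sums ranged from 0.308 to 0.435 (CIP/KIP), 0.217 to 0.304 (INK4) and 0.127 to 0.428 (pocket proteins).

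The replicate numbers do not pair the samples: the deviations of same-numbered samples from their group means correlated at −0.985 across 11411 genes. Across genes, Ctrl replicate 1 thus deviated together with MYCN KD replicate 2, and Ctrl replicate 2 with MYCN KD replicate 1. The spread behind the SDs, standard errors and p-values was therefore largely shared between the groups, and not independent between the samples. Its cause was not tested. With the replicate block, RB1 passed (0.52, adjusted p = 0.00414), CDKN2C did not (0.25, adjusted p = 0.183), and 13 genes of all pathway lists drawn up were higher instead of 20, with 2077 and 1851 calls among all genes. A crossed block, added after seeing the data, gave 5910 higher and 5262 lower calls, which is 97.9% of all tested genes. All tested members were among them, 5 as higher and 4 as lower (CDKN1B, CDKN2A, RBL1 and RBL2). With nearly every gene called, these counts show nothing particular to the members. A negative binomial test of counts was planned and not run, since the deposited values are normalized RPKM, and limma voom on the recovered reads stands in for it.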

Other observations

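The pathway gene whose 4 values, centred on their mean, lay closest to those of each member was sought, as the mean absolute difference of log2(RPKM + 1) over the 4 samples. It was TP53INP1 for CDKN1A (0.181), TP53I3 for CDKN2D (0.118), CKS1B for CDKN2A (0.00889), DYRK1A for CDKN2B (0.024), BTG2 for CDKN2C (0.00303), FOXO3 for RB1 (0.0443), E2F6 for CDKN1B (0.0105), TOP2A for RBL1 (0.00107) and BUB1 for RBL2 (0.0137). Counted with the named gene itself, 1 tested gene was as close to RBL1 as TOP2A, which is TOP2A alone, and 4 were as close to CDKN2C as BTG2. For the other members, counted in the same way, from 13 (CDKN2A) to 131 (CDKN2D) tested genes were as close, so with 4 samples such likeness is shared by many genes.
The ratio of CDKN1A to CDKN1B RPKM was 0.187 and 0.185 in Ctrl, against 0.583 and 0.588 in MYCN KD. That of CDKN2D to CDKN2A was 0.368 and 0.390 in Ctrl, against 1.46 and 1.37 in MYCN KD, so that the order of these INK4 genes was turned around in both replicates. RB1 over the sum of RBL1 and RBL2 was 1.24 and 1.33 in Ctrl, against 2.15 and 2.02 in MYCN KD. RB1, RBL1 and RBL2 were each higher in Ctrl replicate 2 than in Ctrl replicate 1, and each higher in MYCN KD replicate 1 than in MYCN KD replicate 2. CDKN1A, CDKN1B, CDKN1C and CDKN2B had the same order, and CDKN2A, CDKN2C and CDKN2D the reverse. This order is therefore not particular to the pocket proteins, as the crossed deviations ran through all tested genes (correlation −0.985).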
